A study of Homo sapiens with 6 samples.

Results

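The SR protein and hnRNP genes are the 2 large families of splicing regulators that the U2AF1 experiment on cells labelled SKM-1 measured besides the mutated factor itself. They were taken by symbol: SRSF followed by a number, or a symbol that starts with HNRNP, leaving out the names of processed pseudogenes. The rule found 33 of the 31142 genes listed, 11 SR protein genes (SRSF1 to SRSF11) and 22 hnRNP genes. It used no expression value, and all 33 members had a mean of at least 1 FPKM (fragments scaled to exon length and to the mapped total of the library), so none was lost to the filter on low values.

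The study asked how the S34F mutation of U2AF1, the small subunit of the factor that recognises the 3′ splice site, changes the transcriptome. SKM-1 is a line from a patient whose myelodysplastic syndrome had become acute myeloid leukaemia, and its own U2AF1 is wild type per the study. The S34F group held 3 libraries of cells carrying lentiviral U2AF1 with the S34F mutation, the WT group 3 libraries of cells labelled wild-type U2AF1, and total RNA was taken at 96 h. The vector has a ubiquitin promoter, a FLAG tag, GFP and puromycin selection, so the construct adds to the U2AF1 of the cell. In its results the study sets the S34F cells against cells that express wild-type U2AF1. WT libraries carry the prefix NC, however, which the study also uses for its negative controls, and its methods speak of a vehicle control. The sources thus differ, and whether WT cells carried a wild-type U2AF1 construct cannot be told from the labels. The study calls the RNA samples independent. Treatment was done in triplicate per the protocol, but whether the triplicates were infected separately is not stated, so p-values measure the spread between these libraries, which may be technical.

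SR proteins bind exonic enhancers through an RNA recognition motif and use an arginine and serine rich tail, which kinases phosphorylate, to bring in U1 snRNP and U2AF. Many hnRNPs bind nascent RNA in exons and introns and often act against exon inclusion, so the balance between both families helps to set which weak 3′ splice sites are used. Several of these genes hold poison exons or splice within their 3′ ends, through which their proteins limit their own mRNA, and a level summed over transcripts does not show such choices.

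U2AF1 itself read 9.24, 9.48 and 9.18 FPKM in S34F and 8.67, 8.70 and 7.65 FPKM in WT, 1.12 times as high by group means, with all S34F libraries above all WT libraries, as in 3.66% of all genes tested. Its log2 difference was 0.14 ± 0.10 (SE), with an unadjusted p of 0.194 and an adjusted p of 1.00 in limma. The table does not separate the mutant allele. Erythroid markers were high in all libraries, with all 12 on the list at 1 FPKM or more and a median of 551 FPKM. Of 12 monocytic and myeloid markers 9 were under 1 FPKM, MPO and FCN1 close to 0, while LYZ, CD33 and ITGAM had means of 15.7, 2.44 and 2.42 FPKM. The erythroid sum was 12140 to 13909 FPKM in S34F and 11747 to 12839 in WT, and the monocytic and myeloid sum 13.2 to 29.9 FPKM in S34F and 24.5 to 26.1 FPKM in WT. LYZ read 8.52, 8.82 and 23.2 FPKM in S34F and 18.8, 17.0 and 17.6 FPKM in WT. SKM-1 is known as a line of monocytic leukaemia, and the study also used K562, a line with erythroid features. The identity of the line was not tested here, so SKM-1 stands for the label, and each value holds for the cells so labelled. Both replicates numbered 3 stood apart from the other 4 libraries, and the values of the members in them are given last.

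Some member rows share their sequence with another row, and 2 junctions show where for the read-through genes. HNRNPUL2-BSCL2 (chr11:62690275-62727384, minus strand, GENCODE 29 on GRCh38) is a read-through gene whose listed transcript, ENST00000403734, is annotated as a target of nonsense-mediated decay. All of its 4001 bases lie in exons of its neighbours, 2391 in HNRNPUL2 and 1610 in BSCL2, the seipin gene, and 0 are its own. The exon junction between both genes, which skips 8175 bases, is the part that only the read-through has. RPL36A-HNRNPH2 on chromosome X joins a ribosomal protein gene to HNRNPH2 in the same way through a junction across 20113 bases. The junctions are printed as 15 bases on each side, the downstream gene in capitals.
HNRNPUL2-BSCL2: caatacaatcgggatGGACCCTCCATTTTC
RPL36A-HNRNPH2: attttccggaaaaagCTACACCAAAATTGC

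HNRNPA1L2, a retrocopy on chromosome 13, shares 98.4% of its coding sequence with the closest of the HNRNPA1 coding sequences compared. They have 15 differences over 963 bases and a longest identical run of 174 bases. Of 814 windows of 150 bases, 25 were identical.

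FPKM is scaled to length, so the members are listed here by level. The length taken for each gene is not given in the sources used here. Some rows also share exons with other genes, so the order between genes is approximate. The hnRNP genes had a median level of 31.8 FPKM and the SR protein genes one of 14.2 FPKM, against 5.31 FPKM over the 10942 genes with a mean of at least 1 FPKM. HNRNPA1, which binds exonic and intronic silencers, was the highest member. Its libraries read 276, 290 and 215 FPKM in S34F and 254, 268 and 203 FPKM in WT. The lowest value of each group was its replicate 3, and the groups overlapped. HNRNPAB, an A/B-type protein that also binds single-stranded DNA, read 170, 167 and 152 FPKM in S34F and 184, 177 and 133 FPKM in WT. HNRNPF, which binds runs of G together with the H proteins, read 102, 99.4 and 113 FPKM in S34F and 106, 107 and 90.9 FPKM in WT. In HNRNPF the S34F replicate 3 was the highest and the WT replicate 3 the lowest of the 6.

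Below these came HNRNPK, which binds C-rich RNA, at a mean of 86.2 FPKM over the 6 libraries. HNRNPC, which binds U tracts and can compete with U2AF at them, followed at 62.4 FPKM. HNRNPA3 and HNRNPA2B1, close relatives of HNRNPA1, were at 56.2 and 54.8 FPKM, and HNRNPL, which binds CA repeats, was at 52.5 FPKM. These 3 means lie closer together than the SD between libraries of either group in HNRNPA2B1, 7.48 FPKM in S34F and 11.7 FPKM in WT. The genes were measured in the same libraries, so this SD is not the error of a difference between them. Their order was not tested. HNRNPUL1, HNRNPD, HNRNPUL2, HNRNPM and HNRNPA0 lay between 39.4 and 27.1 FPKM. HNRNPDL was at 20.5 FPKM and HNRNPU, the scaffold attachment factor, at 14.3 FPKM. HNRNPR, HNRNPH3, HNRNPH2, HNRNPA1L2, HNRNPH1 and HNRNPLL ran from 13.2 down to 5.93 FPKM, and HNRNPUL2-BSCL2 was the lowest of all at 2.42 FPKM.

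Among the SR protein genes SRSF9 was the highest. Its libraries read 37.7, 39.6 and 38.9 FPKM in S34F and 42.5, 41.5 and 29.4 FPKM in WT. SRSF3, the smallest SR protein and an adaptor for mRNA export, read 31.2, 30.9 and 27.7 FPKM in S34F and 29.5, 31.1 and 25.1 FPKM in WT. SRSF6 read 28.3, 26.8 and 28.2 FPKM in S34F and 28.0, 28.4 and 22.7 FPKM in WT. In each of these genes WT replicate 3 was the lowest of the 6 libraries and the groups overlapped. SRSF7, which has a zinc knuckle, and SRSF2, an enhancer-binding protein also mutated in myelodysplastic syndromes, had means of 26.6 and 22.6 FPKM. SRSF5, SRSF1 and SRSF8 had means of 14.2, 13.6 and 13.4 FPKM, and SRSF4, SRSF11 and SRSF10 of 8.81, 6.97 and 6.05 FPKM. Together the 33 members made 0.303% to 0.407% of the summed FPKM of a library, lowest in WT replicate 3 and next lowest, at 0.358%, in S34F replicate 3.

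**Figure D1:**
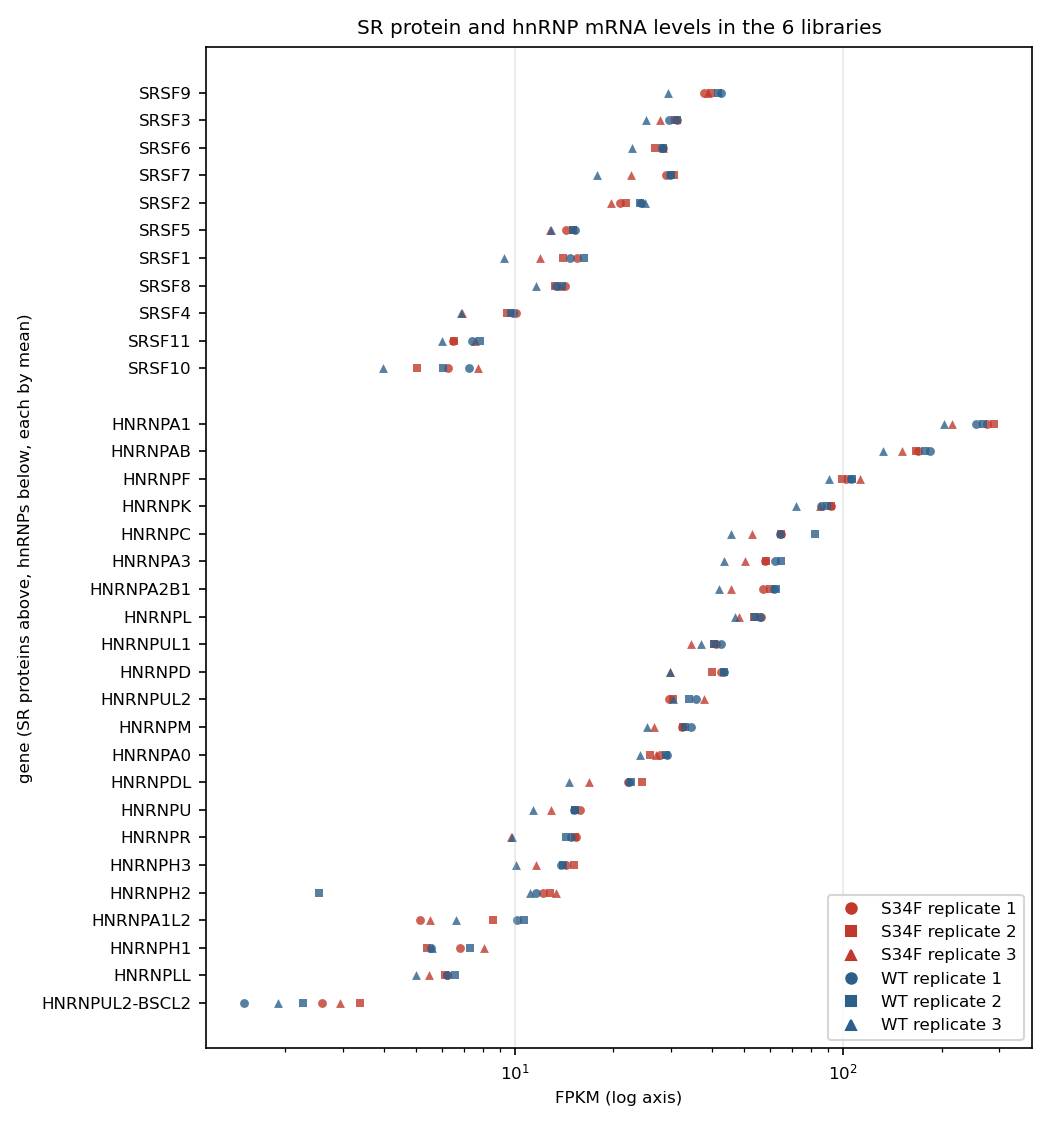
FPKM of the 33 genes (x axis, logarithmic) in each library, SR protein genes above and hnRNP genes below, each in order of the mean. Red marks are S34F, blue marks WT, and the shape gives the replicate number. The triangles of replicate 3 lie to the left in most genes, and WT replicate 2 lies far below the other libraries in HNRNPH2.

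S34F was compared with WT on the log2(FPKM + 1) scale by limma across the 10942 genes, a call being an unadjusted p under 0.05. Of the 33 members 1 was called higher in S34F, HNRNPUL2-BSCL2, where 0.823% of all genes tested were called higher. None of the 33 was called lower, where 1.57% of all genes were. At an adjusted p under 0.05 limma called 0 members and 0% of all genes, while 90 genes passed the unadjusted limit upward and 172 downward. The median difference, S34F minus WT on the log2 scale, was 0.07 over the SR protein genes, 0.01 over the hnRNP genes and 0.01 over all genes tested. In bulk RNA, fewer cells of a type and less RNA per cell cannot be told apart.

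For 27 of the 33 members the 95% interval of the difference lay within 1.5-fold of no change in both directions, as it did for 73.7% of all genes tested. The limit is 1.5-fold of FPKM + 1, and the added 1 shrinks the differences of low genes. The 6 members with wider intervals were HNRNPH2, HNRNPA1L2, HNRNPUL2-BSCL2, HNRNPDL, SRSF7 and SRSF10. For these 6 a difference of 1.5-fold lies within the interval of at least 1 direction. With the replicate block in limma, the intervals narrowed to -0.14 to 0.33 in HNRNPDL and -0.18 to 0.38 in SRSF7 on the log2 scale, within 1.5-fold, while those of the other 4 still reached past it. The libraries of both groups did not overlap in 3 members. All S34F libraries were above all WT libraries in HNRNPH2 and HNRNPUL2-BSCL2, which was so for 3.66% of all genes, and all were below in SRSF2, which was so for 3.73%. With 3 libraries a group an exact permutation test of a single gene cannot go below p = 0.1.

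HNRNPUL2-BSCL2 read 2.58, 3.37 and 2.93 FPKM in S34F and 1.49, 2.27 and 1.90 FPKM in WT. Every S34F library was above every WT library, and S34F was higher within each replicate number. The group means were 2.96 ± 0.395 and 1.89 ± 0.389 FPKM (SD, n = 3), a ratio of 1.57. The log2 difference was 0.46 ± 0.14 (SE), with an unadjusted p of 0.0142 and an adjusted p of 1.00 in limma. The added 1 shrinks this difference, which was 0.63 with a pseudocount of 0.1. The unadjusted p was 0.0523 without S34F replicate 2, 0.0553 without WT replicate 1 and 0.0636 without both replicates numbered 3, each above 0.05. Under every other alternative the unadjusted p in limma stayed under 0.05, from 0.00504 with the replicate block to 0.0346 without WT replicate 3. The adjusted p in limma under the block was 0.994.

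HNRNPUL2, a scaffold attachment factor relative of HNRNPU gives the read-through its first exons. It read 29.5, 30.4 and 37.7 FPKM in S34F and 35.8, 33.9 and 30.4 FPKM in WT, with a log2 difference of -0.04 ± 0.13 (SE). BSCL2 read 11.3, 12.7 and 9.55 FPKM in S34F and 10.3, 9.30 and 12.5 FPKM in WT. In both neighbours the groups overlapped. The read-through value was 7.79% to 11.1% of that of HNRNPUL2 in S34F and 4.17% to 6.70% in WT. Since the read-through has no bases of its own, its value rests on the splitting of shared reads, and reads across the junction were not analysed here. The start sites of HNRNPUL2 and its read-through lie 73 bases apart in RefSeq, and 227 bases of their promoter windows are the same.

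HNRNPH2, a G-run binding protein on chromosome X (chrX:101408295-101414133, plus strand), read 12.2, 12.8 and 13.4 FPKM in S34F and 11.6, 2.53 and 11.1 FPKM in WT. The group difference comes from 1 library, WT replicate 2. Its log2 difference was 0.76 ± 0.47 (SE), unadjusted p = 0.151 in limma, and without WT replicate 2 it was 0.16. RPL36A-HNRNPH2 was listed at 0, 0 and 0.996 FPKM in S34F and at 0, 5.33 and 0 FPKM in WT. The library with the low HNRNPH2 value is thus the one with the highest read-through value, and the 362 bases of HNRNPH2 that the read-through holds are 16.3% of the exonic bases of the gene. Whether reads of HNRNPH2 were given to the read-through in that library was not tested.

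**Figure D2:**
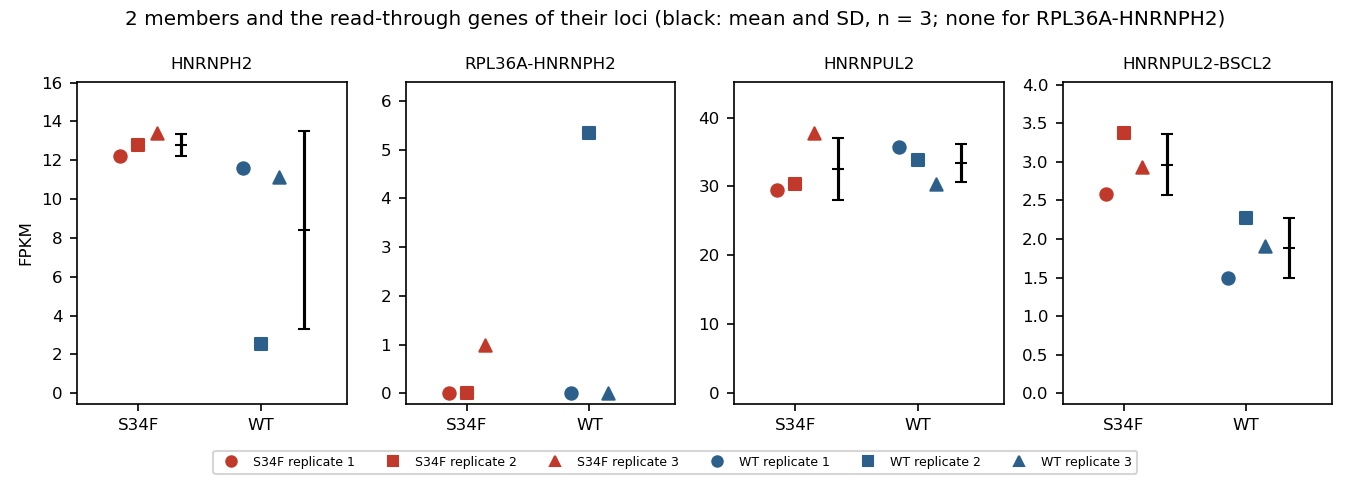
FPKM (y axis, each panel with its own range) of HNRNPH2, RPL36A-HNRNPH2, HNRNPUL2 and HNRNPUL2-BSCL2 in S34F (red) and WT (blue), 1 mark per library with the shape for the replicate number. Black bars are the mean and SD (n = 3), left out for RPL36A-HNRNPH2, which is listed at 0 in 4 libraries. WT replicate 2 is lowest in HNRNPH2 and highest in RPL36A-HNRNPH2.

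SRSF2 (chr17:76734115-76737374, minus strand) read 21.0, 21.9 and 19.6 FPKM in S34F and 24.2, 24.1 and 25.0 FPKM in WT. Every S34F library was below every WT library. The group means were 20.8 ± 1.12 and 24.5 ± 0.483 FPKM (SD, n = 3), a ratio of 0.852. The log2 difference was -0.22 ± 0.10 (SE), with an unadjusted p of 0.0522 in limma, just above 0.05. The difference was called under 5 of 13 alternatives. Its unadjusted p in limma was 0.0484 after median-ratio scaling, 0.0359 after quantile normalization and 0.0213 without the filter on low values. It was 0.0470 without S34F replicate 3 and 0.0252 without both replicates numbered 3. It was not called under the other 8, with an unadjusted p of 0.0571 in limma under the replicate block and of up to 0.127, without WT replicate 1. Of the exonic bases of SRSF2, 36.7% lie antisense to exons of MFSD11, and whether the counting used strand is not given in the sources used here. MFSD11 read 3.04 to 3.99 FPKM in S34F and 3.18 to 4.04 FPKM in WT.

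HNRNPA1L2 read 5.15, 8.60 and 5.54 FPKM in S34F and 10.1, 10.7 and 6.61 FPKM in WT. S34F was lower within each replicate number, but the groups overlapped. The log2 difference was -0.45 ± 0.23 (SE), with an unadjusted p of 0.0941 in limma. In limma with a block for replicate number, the unadjusted p was 0.0351, where 2.46% of all genes were called lower and 1.59% higher. Leaving out 1 library, it was 0.0228 without S34F replicate 2 and 0.0286 without WT replicate 3, and 0.215 to 0.248 without each of the other 4 in turn. It was 0.112 without the filter on low values and 0.0733 without both replicates numbered 3. HNRNPA1, whose coding sequence it nearly shares, had a mean of 251 FPKM against 7.79 FPKM, and a log2 difference of 0.11 ± 0.16 (SE).

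The other 29 members had log2 differences of -0.05 to 0.14, with ratios of group means from 0.950 to 1.10 and no unadjusted p below 0.317 in limma. SRSF10, a repressor when dephosphorylated, was the highest of them. It read 6.26, 5.05 and 7.70 FPKM in S34F and 7.27, 6.04 and 3.95 FPKM in WT, a log2 difference of 0.14 ± 0.22 (SE). S34F was lower in replicates 1 and 2 and higher in replicate 3. SRSF7 read 28.8, 30.5 and 22.6 FPKM in S34F and 29.8, 29.9 and 17.9 FPKM in WT, a log2 difference of 0.10 ± 0.22 (SE). In SRSF7 replicate 3 was the lowest of each group.

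Of all 33 members, those described above included, 10 share exonic bases with a listed gene on the same strand and 11 with 1 on the opposite strand. Some same-strand overlaps are only a small RNA gene, such as the 74 bases of MIR4444-1 in HNRNPA3. SRSF1 shares 56.6% of its exonic bases with AC015813.2 on the same strand. SRSF9 has 46.2% antisense to GATC, a subunit of the mitochondrial glutamyl-tRNA amidotransferase, and HNRNPU has 15.6% antisense to COX20. How the authors' counting divided such reads was not tested.

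The libraries stood apart by replicate number in more members than by group. Both replicates numbered 3 were below the other 4 libraries in 20 of the 33 members, where 25.1% of all genes tested showed this. They were above the other 4 in 0 members, where 17.9% of all genes were. The 20 were 15 of the 22 hnRNP genes and 5 of the 11 SR protein genes, SRSF1, SRSF3, SRSF4, SRSF5 and SRSF7. In these the mean of both replicates numbered 3 was 65.3% to 87.4% of the mean of the other 4. HNRNPR, which binds mRNA in nucleus and cytoplasm, had the largest such drop, with 15.4, 15.3 and 9.72 FPKM in S34F and 14.8, 14.3 and 9.82 FPKM in WT. HNRNPR, HNRNPC and HNRNPD were chosen for display here after their values were seen.

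HNRNPC read 64.7, 65.0 and 52.7 FPKM in S34F and 64.2, 82.1 and 45.7 FPKM in WT. HNRNPD, also known as AUF1 for binding AU-rich elements, read 42.7, 39.9 and 29.7 FPKM in S34F and 43.3, 43.3 and 29.6 FPKM in WT. In both genes replicate 3 was lowest in each group. The median of replicates 3 minus the other 4, on the log2 scale, was -0.22 over the members and -0.03 over all genes tested. It was -0.31 over the hnRNP genes and -0.20 over the SR protein genes.

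The lowest value was more often that of WT. WT replicate 3 was the lowest of the 6 libraries in 24 members, where 23.6% of all genes had their lowest value there, and S34F replicate 3 was lowest in 4, where 27.3% had theirs. Within replicate 1 S34F was higher than WT in 15 of the 33 members (50.2% of all genes), within replicate 2 in 10 (47.1%) and within replicate 3 in 28 (56.2%). The median difference within replicate 3 was 0.19 over the members and 0.04 over all genes on the log2 scale. Within replicates 1 and 2 it was -0.01 and -0.07 over the members. By the step of low values, the relative depth of S34F replicate 3 and WT replicate 3 lay within the range of the other 4 libraries. What set the replicates numbered 3 apart was not tested.

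**Figure D3:**
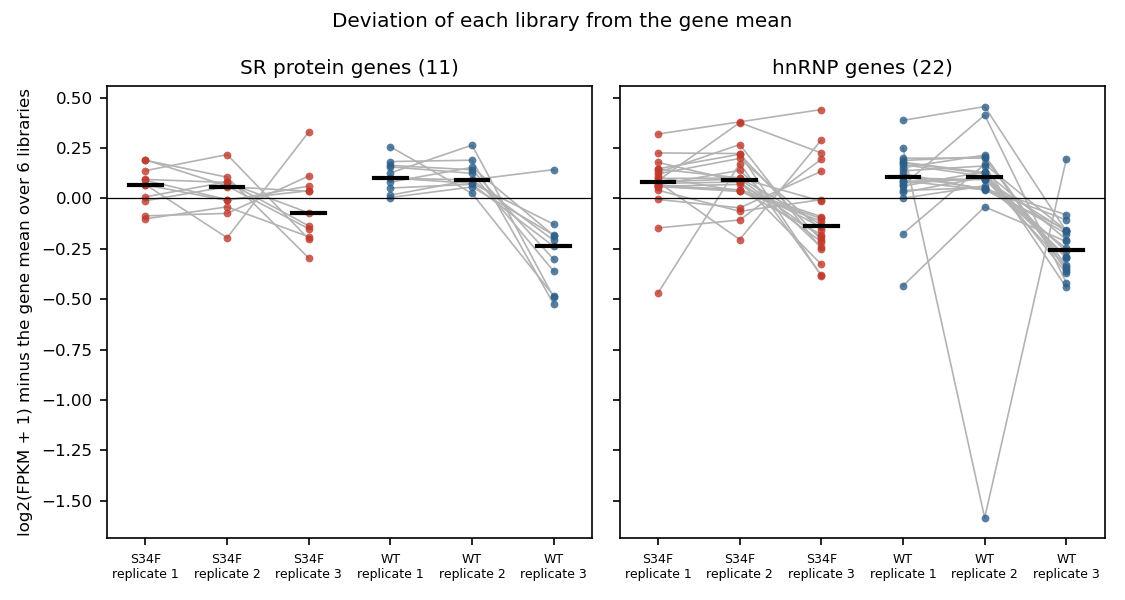
Deviation of each library from the mean of the gene over 6 libraries on the log2(FPKM + 1) scale (y axis), 1 point per gene, for the 11 SR protein genes (left) and the 22 hnRNP genes (right). Thin lines join the libraries of a gene within a group and thick bars are medians. The medians of both replicates numbered 3 are below 0, and that of WT replicate 3 is the lowest, while the point far below the others is HNRNPH2 in WT replicate 2.

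Without both replicates numbered 3, 0 members were called higher and 3 lower, where 8.16% of all genes were called higher and 8.71% lower. The 3 are 9.09% of the members, near the share of all genes. The 3 were SRSF2, HNRNPUL2 and SRSF11, a splicing factor of the SR family that was first described as p54. The log2 difference of HNRNPUL2 was then -0.21 ± 0.05 (SE, unadjusted p = 0.0152 in limma) and that of SRSF11 was -0.20 ± 0.06 (SE, unadjusted p = 0.0267 in limma). The adjusted p in limma was 0.202 in HNRNPUL2, 0.239 in SRSF11 and 0.236 in SRSF2. With all libraries both differences were near 0, at -0.04 and -0.03. HNRNPUL2-BSCL2 kept its sign at 0.47 but not its call.

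Other regulators of the same steps were read from a list of 67 genes, of which 66 were in the table and 54 were tested. None of the 54 was called in either direction, where 0.823% of all genes tested were called higher and 1.57% lower. The lowest unadjusted p was 0.0671 in limma, for SCAF4, an SR-related protein that binds the tail of RNA polymerase II. The median log2 difference was 0.04 over the list. The SR protein kinases, the import receptors and the SR-related proteins each had 0 calls, with medians of 0.00, 0.15 and 0.04 over 6, 2 and 20 genes. The import receptors were TNPO1, with a log2 difference of 0.21, and TNPO3, with 0.08.

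The low values of the replicates numbered 3 were shared by hnRNP proteins under other symbols. Both replicates were below the other 4 libraries in 12 of 16 such genes, against 7 of 20 SR-related genes, 1 of 6 SR protein kinases, 0 of 2 import receptors and 1 of 10 other regulators. Over all genes tested the share was 25.1%. TAF15, an RNA-binding protein first found with the general factor TFIID, read 20.6, 23.5 and 17.5 FPKM in S34F and 23.1, 21.9 and 12.9 FPKM in WT. RBMX, the X-linked hnRNP G, read 21.3, 20.3 and 14.8 FPKM in S34F and 19.5, 21.3 and 14.5 FPKM in WT. SRPK1, which phosphorylates the tails of SR proteins, read 18.1, 18.7 and 11.7 FPKM in S34F and 15.2, 15.6 and 11.0 FPKM in WT. SRPK1 was the 1 kinase with this pattern. CLK1 and CLK3, which also phosphorylate SR proteins, went the other way, with both replicates above the other 4 libraries and log2 differences of replicates 3 from the others of 0.61 and 0.32. RALY, among the hnRNP proteins under other symbols, did not share the pattern. It read 28.2, 27.2 and 44.2 FPKM in S34F and 28.8, 37.9 and 35.8 FPKM in WT. TAF15, RBMX, SRPK1, CLK1, CLK3 and RALY were named after their values were seen.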

How the data were processed

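RNA-seq of 6 libraries (3 S34F, 3 WT) was analysed from 1 table of gene-level FPKM deposited by the authors. The submitters' processing notes name StringTie and edgeR, without versions or roles. The aligner, genome build and annotation are not given in the sources used here, and 31002 of 31142 gene identifiers were found in GENCODE 29, which gave coordinates, exons and transcript sequences. Promoter windows came from RefSeq (GRCh38.p14), with 31 of 33 members matched. The authors' own fold changes, p-values and q-values in the table were not used.

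The deposited FPKM values hold no counts, so no count test was run. Low values of single-exon genes were searched for the step that 1 fragment makes. In all 6 libraries the stronger step lay at a depth of 41200000 to 52800000 fragments and a weaker one at 20750000 to 26350000, so the absolute depth is not settled. By either step the deepest library was about 1.27 to 1.28 times the shallowest. The search ranges for both steps were set after the data were seen.

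Differences are S34F minus WT of log2(FPKM + 1) from limma 3.58.1 in R 4.3.3, with a mean-variance trend, over genes with a mean of at least 1 FPKM, and Benjamini-Hochberg adjustment over all of them. Members were taken by symbol. Values in every library are given for members called at an unadjusted p under 0.05, the 3 highest and the 3 largest differences of each family, and members whose groups do not overlap. Members and lists were chosen with earlier results of these data known. Deviations of libraries with the same replicate number from their group means correlated at 0.212, 0.174 and 0.380 over genes, all above 0.1. Some libraries of unlike number did so too, such as S34F replicate 1 with WT replicate 2 at 0.134. S34F replicate 2 correlated more with WT replicate 1 (0.197) than with WT replicate 2. These values thus cannot settle whether numbers 1 and 2 pair the libraries, though the study speaks of pairs. The main fit held no term for replicate number, and a block for it was fitted as an alternative. Standard errors, intervals and p-values are from the main fit unless an alternative is named. The script was tested on simulated data. Alternatives were median-ratio scaling, quantile normalization, a pseudocount of 0.1, no filter, no trend, the replicate block, leaving out each library, and leaving out both replicates numbered 3.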

Additional observations from a re-analysis of the deposited data

How the results depend on the processing

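Median-ratio scaling, quantile normalization, no filter and the replicate block each gave 1 member called lower instead of 0 (SRSF2 in the first 3, HNRNPA1L2 under the block), and the block changed no other member's call. Over all genes, the unadjusted limma calls of 90 higher and 172 lower became 323 and 581 without the filter and 174 and 269 under the replicate block. Without both replicates numbered 3 they were 893 and 953 (8.16% and 8.71% of all genes), with 8 genes at an adjusted p under 0.05. There were then 0 members higher, 3 lower and 4 calls among the 54 genes tested on the list of other regulators. With single libraries left out, all-gene calls ran from 67 to 576 higher (most without S34F replicate 3) and 95 to 584 lower, adjusted calls from 0 to 3, members from 0 to 1 in each direction, the other regulators from 0 to 1, and the median log2 difference of the SR protein genes from -0.11 (without WT replicate 3) to 0.13.

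Small differences changed sign. With single libraries left out, the log2 difference ran from -0.015 to 0.24 in HNRNPA1, -0.15 to 0.083 in HNRNPAB, -0.019 to 0.095 in HNRNPF, -0.073 to 0.30 in SRSF10, -0.020 to 0.13 in SRSF3, -0.022 to 0.13 in SRSF6, -0.14 to 0.23 in SRSF7 and -0.11 to 0.15 in SRSF9. All but HNRNPAB turned negative without WT replicate 3, and HNRNPAB turned positive without S34F replicate 3, WT replicate 1 or WT replicate 2. Without both replicates numbered 3 the difference was -0.073 in HNRNPF, -0.20 in SRSF10, -0.032 in SRSF6, -0.0087 in SRSF7 and -0.12 in SRSF9. Under quantile normalization it was 0.0027 in HNRNPAB. The cause was not tested. FPKM without counts gives no counting error for low members such as HNRNPUL2-BSCL2.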

Other observations

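The rule left out 64 rows with hnRNP pseudogene names, of which 12 had a mean of at least 1 FPKM. The 35 rows named HNRNPA1P summed to a mean of 83.8 FPKM, 33.4% of the value of HNRNPA1. The highest were HNRNPA1P10, at 40.8, 36.2 and 25.6 FPKM in S34F and 34.6, 25.6 and 29.6 FPKM in WT, and HNRNPA1P7, at 27.0, 27.0 and 30.4 FPKM in S34F and 25.2, 36.3 and 19.6 FPKM in WT. The groups overlapped in both. Whether these values are reads of the parent gene was not tested.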
